A study of Homo sapiens with 4 samples.

Results

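The 35 genes described here encode proteins that carry a cell from G2 through mitosis, and their transcripts were counted in SJSA-1 cells after knockdown of ZNF217 and in control cells. They were named by symbol in a list of cyclins, mitotic kinases, spindle proteins and their regulators. All 35 were found among the 20024 genes of the table and all passed the low-count filter, with at least 162 counts in every library. The 2 groups were ZNF217 knockdown and control, each with 2 libraries of total RNA. SJSA-1 is an established cell line of human osteosarcoma. It is known for an amplified MDM2 gene, and ZNF217 is a zinc finger transcription factor. The sources used here name neither the knockdown reagent, nor what the control cells received, nor the time of harvest. Whether the replicates are separate cultures is unlabelled too, and the spread behind each p-value may therefore be technical.

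Cells enter mitosis when CDK1 bound to B-type cyclins becomes active, a step that Polo and Aurora kinases and CDC25 phosphatases drive forward. The spindle checkpoint then holds the anaphase-promoting complex in check until every kinetochore is attached to microtubules, after which securin and cyclin B are degraded and the cell divides. Transcripts of these genes rise together in G2 in dividing cells, under FOXM1, B-MYB and the MuvB complex, and are therefore widely read as a sign of proliferation. In bulk RNA, fewer cells in G2 or mitosis and less RNA per such cell cannot be told apart.

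ZNF217 (ENSG00000171940, chr20:53567065-53609907, minus strand, GRCh38), the targeted gene, had 37.6 and 31.9 CPM in the knockdown libraries, against 66.2 and 73.4 CPM in control replicates 1 and 2. CPM is the count scaled to the library total after TMM normalization. This was a log2 fold change of −1.01 (SE 0.197), with an adjusted p of 0.207 by edgeR's quasi-likelihood test and 0.0115 by DESeq2. Libraries held 21466327 to 24487126 counts. Spread was unequal between the groups, with a biological coefficient of variation of 0.393 between controls and 0.0776 between knockdown libraries. Control replicate 2 held more immediate early transcript, with FOS at 21.2 and 27.7 CPM in the knockdown libraries, against 21.4 and 725 CPM in control replicates 1 and 2. EGR1 was at 23.9 and 24.6 CPM in the knockdown libraries, against 22.2 and 519 CPM in control replicates 1 and 2. Vimentin, a mesenchymal marker, was at 2729 and 2566 CPM in the knockdown libraries, against 3660.3 and 4266 CPM in control replicates 1 and 2. MDM2 was at 46.3 and 38.9 CPM in the knockdown libraries, against 41 and 30.4 CPM in control replicates 1 and 2. CDK4 was at 331 and 367 CPM in the knockdown libraries, against 349 and 184 CPM in control replicates 1 and 2. COL1A1 was at 8.43 and 9.05 CPM in the knockdown libraries, against 3.51 and 17.1 CPM in control replicates 1 and 2. Of the other mesenchymal and bone markers, RUNX2 was at 16.5 and 16.5 CPM in the knockdown libraries, against 11.2 and 17.4 CPM in control replicates 1 and 2, and SPP1, the secreted bone protein osteopontin, at 126 and 133 CPM in the knockdown libraries, against 14.6 and 8.3 CPM in control replicates 1 and 2, while COL1A2, SP7 and ALPL had at most 4 counts in any library. The 12 haematopoietic markers summed to 57.4 and 58.5 CPM in knockdown libraries, against 81.4 and 79.4 CPM in controls. Most of this was CD68, at 49.3 and 51.2 CPM in the knockdown libraries, against 78.3 and 76.1 CPM in control replicates 1 and 2. LCP1, the other of these markers above a CPM of 1, was at 6.95 and 5.75 CPM in the knockdown libraries, against 2.17 and 2.63 CPM in control replicates 1 and 2, and ITGAM at 0.625 and 0.417 CPM in the knockdown libraries, against 0.139 and 0 CPM in control replicates 1 and 2. CD68 thus lay below both controls and LCP1 and ITGAM above both, while PTPRC, the defining marker CD45, stayed at or below 0.0925 CPM in all 4 libraries. The 5 endothelial markers summed to at most 1.07 CPM. Of the 7 epithelial markers KRT18 alone was abundant, at 1105 and 1182 CPM in the knockdown libraries, against 1224 and 936 CPM in control replicates 1 and 2, and the defining markers EPCAM and CDH1 stayed at or below 0.937 CPM.

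Most of these genes had a slightly lower mean in the knockdown libraries than in the controls, but 0 of the 35 passed the test. The 35 genes summed to 4715 and 4636 CPM in the knockdown libraries, against 5718 and 4900.4 CPM in control replicates 1 and 2. Both knockdown sums lay below both control sums under TMM scaling. Scaled to library totals instead, they were 4945 and 4789 CPM in the knockdown libraries, between the 5760.3 and 4485 of control replicates 1 and 2. The median log2 fold change, knockdown over control, was −0.17, beside −0.0057 over all 12965 genes tested, and 28 of the 35 values were negative. The median was −0.053 with library totals in place of TMM scaling, which set the median of all genes at 0.11, and it was 0.05 with control replicate 1 left out. Their range was narrow, and 34 of 35 lay within 0.5 of zero on the log2 scale, with TOP2A the exception. By edgeR, 0 of the 35 passed in either direction after adjustment over all genes (over all genes the percentage called was likewise 0 each way), with 0.311 as the lowest adjusted p of the set. At an unadjusted p under 0.05, 1 of them was lower and 0 were higher, where 6.42% of all genes tested were lower and 6.61% higher. DESeq2 also called 0 of the 35, beside 1.76% of all genes higher and 2.04% lower. In simulated counts with the common spread of these data, edgeR called 10% of genes changed 2-fold and 79.8% of genes changed 4-fold. That simulation gave every gene the same spread in both groups, whereas the controls here varied more than the knockdown libraries.

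Both knockdown libraries lay below both controls for 13 of the 35 genes and above both for 2. The 13 were TOP2A, CENPA, KIF2C, BUB1, UBE2C, CCNB1, CDC20, PRC1, DLGAP5, AURKA, CDC25C, NUSAP1 and CCNB2, and the 2 were CDC25B and KIF20A. Among all genes tested 22.9% lay below both controls and 25.4% above. With library totals in place of TMM scaling 6 of the 35, not 13, lay below both controls. The shares of all genes given here are under TMM scaling, and those with library totals were not computed.

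**Figure D1:**
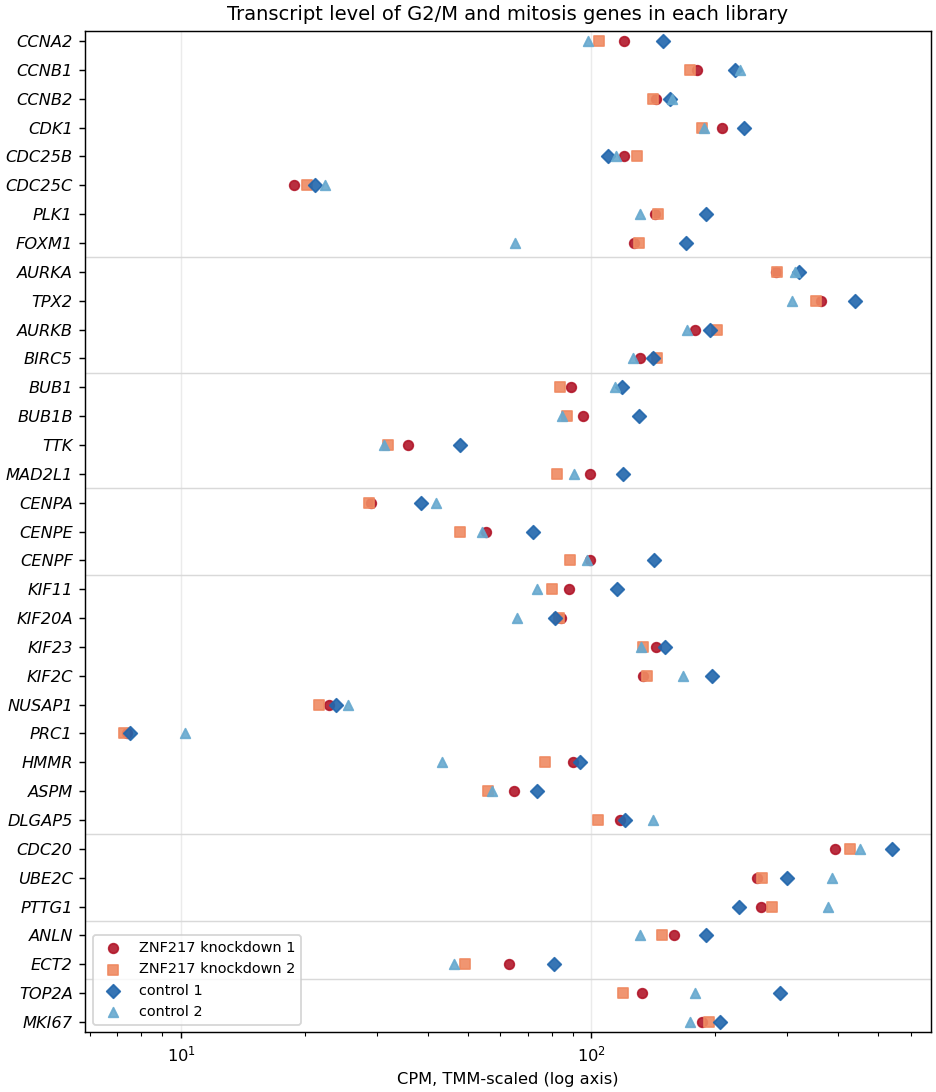
Transcript level of each of the 35 genes in each library, as TMM-scaled CPM on a log axis, with genes grouped by role between grey lines (from mitotic entry at the top to chromosome structure at the bottom). Red circles and orange squares are the 2 knockdown libraries, dark blue diamonds and light blue triangles are control replicates 1 and 2; the knockdown symbols of a gene lie close together, and control replicate 2 stands far to the left for FOXM1 and HMMR.

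Set against each control library separately, the same genes gave different pictures. The median difference in log2 CPM, knockdown mean minus control, was −0.29 against control replicate 1 and 0.060 against control replicate 2, where all genes tested had medians of 0.0042 and 0.028. The knockdown mean was lower than control replicate 1 for 32 of the 35 genes and lower than control replicate 2 for 17, beside 49.6% and 48.3% of all genes tested. With control replicate 2 left out, edgeR called 18 of the 35 lower and 0 higher, beside 16.6% of all genes lower and 18% higher. With control replicate 1 left out, it called 9 lower and 3 higher, beside 28% of all genes lower and 27.9% higher. Each of these fits has a single control, which is assumed to vary like the knockdown pair, and both use the same knockdown libraries. The controls differed from each other by more than that pair did.

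Among the genes lower against each control on its own were TOP2A, CENPA, KIF2C, BUB1 and CCNB1. The share of all genes lower in both of these fits was not computed. Fitted log2 fold changes against the first and the second control were −1.19 and −0.51 for TOP2A, −0.54 and −0.32 for KIF2C, and −0.34 and −0.39 for CCNB1. They were −0.46 and −0.41 for BUB1, and −0.41 and −0.55 for CENPA. The 3 genes called higher against control replicate 2 were FOXM1, HMMR and KIF20A, of which FOXM1 was called lower against control replicate 1.

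**Figure D2:**
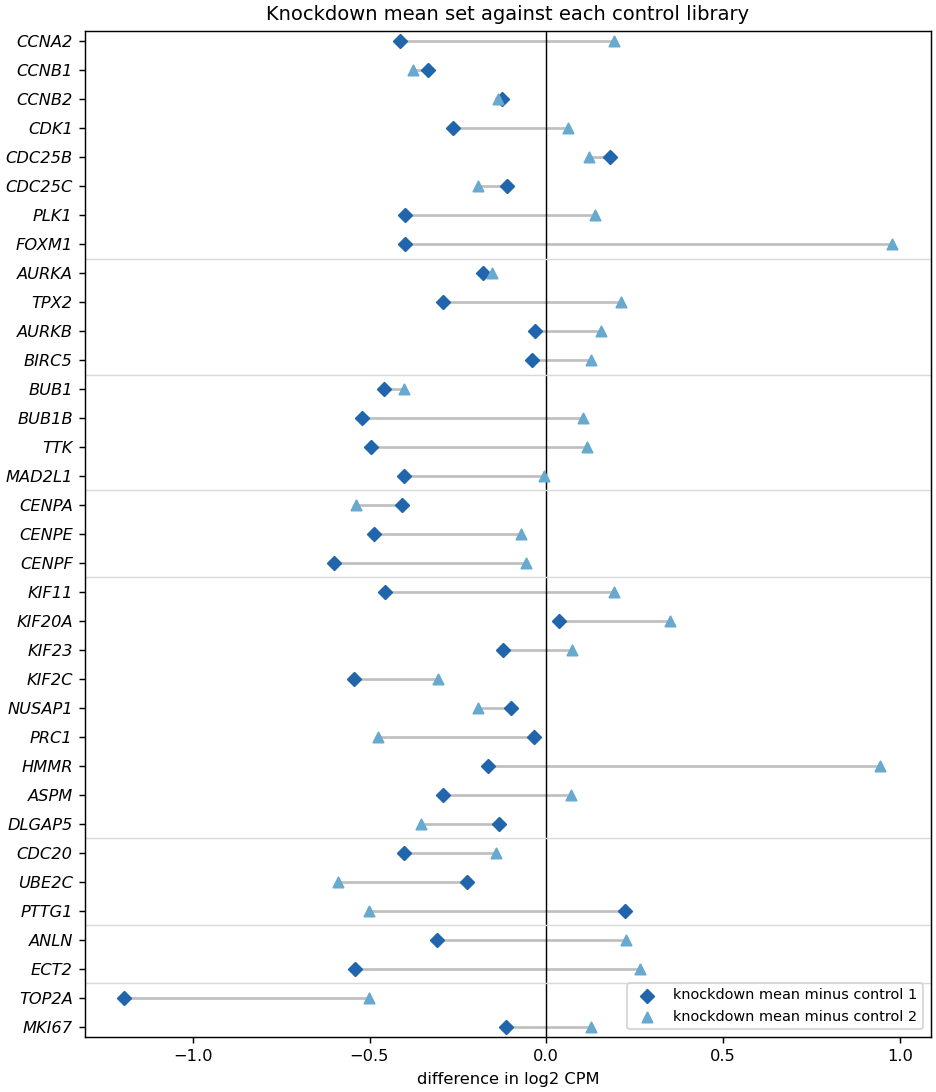
Difference in log2 CPM between the knockdown mean and control replicate 1 (dark blue diamonds) or control replicate 2 (light blue triangles) for each of the 35 genes, joined by a grey line and ordered by role. Short lines, as for CCNB1, BUB1 and AURKA, mark genes on which the controls nearly coincide, and the longest belong to FOXM1 and HMMR, which lie on opposite sides of zero.

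Promoters of genes that peak in G2 and mitosis are known for a cell cycle genes homology region (CHR), bound by the MuvB complex, which often stands downstream of CCAAT boxes bound by NF-Y. RefSeq promoter windows (GRCh38.p14, 250 bases before to 50 after a start) matched 29 of the 35 genes by symbol, with 39 windows in all. FOXM1, AURKA, TPX2, BIRC5, TTK and UBE2C had no entry. The letters TTTGAA, searched on both strands, were found in a window of 20 of the 29 genes, which is 69% (95% Clopper-Pearson interval 49.2 to 84.7%), against 13.9% of the 10378 tested genes with a window. CCAAT on either strand was found for 25 of 29, or 86.2% (68.3 to 96.1%), against 43.5% of tested genes. Both were found for 18 genes, 62.1%, against 5.80% of tested genes. Per window of 300 bases, TTTGAA was in 59% of the 39 windows of these genes and in 15.2% of all 35116 windows of the table. The intervals treat genes as independent draws and cover counting error only. The variant TTCGAA was in the windows of BUB1 and CDC25B. A match is a run of letters, not a shown binding site.

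Stretches of 150 bases before the start are given for genes on which the results turn, in the direction of transcription, with TTTGAA and CCAAT, or their reverse complements TTCAAA and ATTGG, in capitals. CDK1, CDC20, CENPA and HMMR carry both motifs, CCNB1 and TOP2A carry CCAAT alone in this stretch, and KIF2C carries neither. TOP2A counts among the genes with TTTGAA, since its full window holds matches that begin 194 and 151 bases before the start.
CDK1 (chr10:60778328-60778477, plus strand): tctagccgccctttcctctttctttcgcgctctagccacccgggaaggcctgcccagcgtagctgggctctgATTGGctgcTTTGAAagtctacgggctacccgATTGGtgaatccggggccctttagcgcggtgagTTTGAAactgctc
CCNB1 (chr5:69167000-69167149, plus strand): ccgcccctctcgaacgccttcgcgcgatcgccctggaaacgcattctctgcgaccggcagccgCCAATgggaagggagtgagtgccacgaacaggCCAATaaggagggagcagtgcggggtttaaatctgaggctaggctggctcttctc
CDC20 (chr1:43358831-43358980, plus strand): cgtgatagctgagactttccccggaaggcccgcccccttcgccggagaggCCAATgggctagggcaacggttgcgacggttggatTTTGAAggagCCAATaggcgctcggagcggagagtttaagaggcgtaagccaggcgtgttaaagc
CENPA (chr2:26785906-26786055, plus strand): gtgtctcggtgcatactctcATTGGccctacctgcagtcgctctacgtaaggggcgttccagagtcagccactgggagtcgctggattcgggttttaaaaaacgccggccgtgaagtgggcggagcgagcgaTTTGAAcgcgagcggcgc
HMMR (chr5:163460482-163460631, plus strand): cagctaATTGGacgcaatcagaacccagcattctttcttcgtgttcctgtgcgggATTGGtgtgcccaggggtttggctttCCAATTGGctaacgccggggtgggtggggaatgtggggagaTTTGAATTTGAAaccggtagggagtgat
TOP2A (chr17:40417897-40418046, minus strand): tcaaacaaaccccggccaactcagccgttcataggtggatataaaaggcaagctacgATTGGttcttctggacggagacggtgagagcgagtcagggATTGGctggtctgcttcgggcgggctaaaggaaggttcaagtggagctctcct
KIF2C (chr1:44739687-44739836, plus strand): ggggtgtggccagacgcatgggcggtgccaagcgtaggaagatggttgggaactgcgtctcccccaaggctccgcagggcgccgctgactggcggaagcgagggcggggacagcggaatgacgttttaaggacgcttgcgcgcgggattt
In HMMR a CCAAT and an ATTGG overlap within one run of capitals, and a pair of TTTGAA motifs stand end to end, their first bases 28 and 22 bases before the start. In CDC20 the TTTGAA begins 65 bases before the start, between CCAAT boxes that begin 100 and 55 bases before it.

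Positions of the matches were counted over all 39 windows, so that a site in overlapping windows of a gene counts more than once. Of these, 43 of 64 CCAAT matches began between 150 and 50 bases before the start, and 21 of 34 TTTGAA matches began within 50 bases on either side of it. The matching shares over all tested genes were not computed, so these counts do not show clustering particular to this set. Log2 fold changes of genes with and without TTTGAA overlapped. The median was −0.16 for the 20 genes with it, from −0.89 to 0.29, and −0.18 for the 9 without it, from −0.43 to 0.18. Control replicate 2 minus control replicate 1 had medians of −0.34 with it and −0.19 without it, in log2 CPM. The 9 include BUB1 and CDC25B, which hold TTCGAA, and no further form of the CHR was searched. This split therefore does not divide promoters with a CHR from those without one. In the other lists TTTGAA was found for 66.7% of 30 spindle, centrosome and cytokinesis genes, 50% of 16 condensin and cohesin genes and 41.4% of 29 kinetochore genes. It was found for 38.9% of 18 E2F, RB and MuvB factors, 34.8% of 23 genes of the anaphase-promoting complex and mitotic exit and 31.2% of 16 regulators of entry. Of 35 DNA replication and G1/S genes 2.86% held it and 60% held CCAAT.

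**Figure D3:**
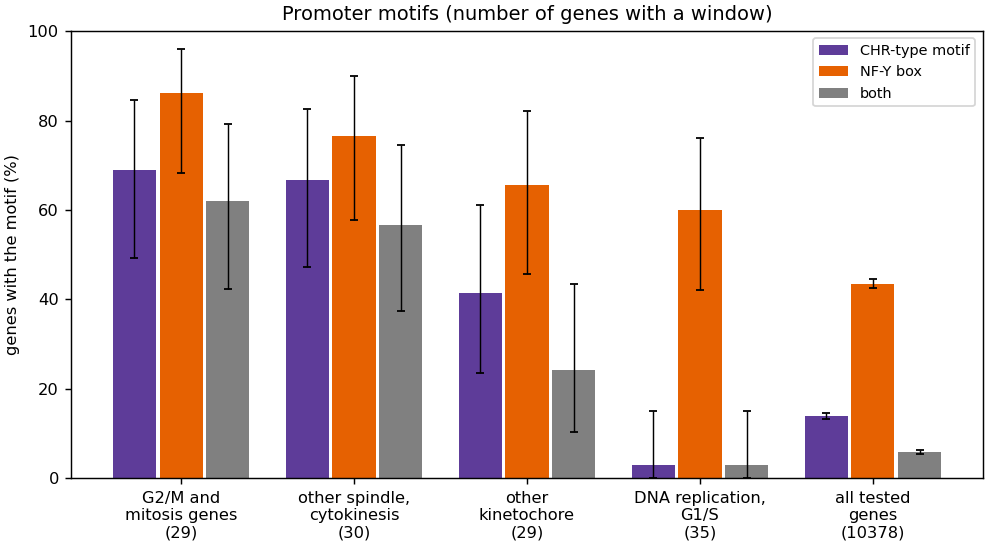
Percentage of genes with a RefSeq promoter window that holds the 6-letter CHR-type motif (purple), the 5-letter NF-Y box (orange) or both (grey), with 95% Clopper-Pearson intervals as error bars and the number of genes in brackets. The CHR-type motif was found for 69% of the G2/M and mitosis genes, 2.86% of DNA replication genes and 13.9% of all tested genes.

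Mitotic entry was the role of 8 genes, with a median log2 fold change of −0.13. CDK1 (ENSG00000170312, chr10:60778331-60794852, plus strand), the kinase that starts mitosis, was at 208 and 186 CPM in the knockdown libraries, against 236 and 188 CPM in control replicates 1 and 2. The groups overlapped, and its log2 fold change was −0.11 (SE 0.195, adjusted p = 0.843 by edgeR). CCNB1 (ENSG00000134057, chr5:69167010-69178245, plus strand), the main mitotic cyclin, was at 180.5 and 174 CPM in the knockdown libraries, against 223 and 229.8 CPM in control replicates 1 and 2. Both knockdown libraries lay below both controls, and these controls were nearly equal. The means were 177 ± 4.88 CPM in knockdown and 227 ± 4.61 CPM in control (SD, n = 2 each), which is 78.1% of the control level. Its log2 fold change was −0.36 (SE 0.161), with an unadjusted p of 0.0767 and an adjusted p of 0.433 by edgeR.

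CCNB2, the second B-type cyclin, had almost the same level in both controls, at 144 and 142 CPM in the knockdown libraries, against 156 and 157 CPM in control replicates 1 and 2, and 91.3% of the control level in knockdown. CCNA2, the cyclin of S phase and G2, was at 120.2 and 104 CPM in the knockdown libraries, against 149 and 98 CPM in control replicates 1 and 2. Control replicate 1 was highest and control replicate 2 lowest, with both knockdown libraries between them. PLK1, the Polo-like kinase, took the same order, at 143 and 145 CPM in the knockdown libraries, against 190.3 and 131 CPM in control replicates 1 and 2. Of the phosphatases that activate CDK1, CDC25B was at 120.1 and 129 CPM in the knockdown libraries, against 109.9 and 115 CPM in control replicates 1 and 2. CDC25C was at 18.9 and 20.3 CPM in the knockdown libraries, against 21.2 and 22.4 CPM in control replicates 1 and 2. CDC25B lay just above both controls and CDC25C just below both, and neither passed the test (adjusted p = 0.732 and 0.786 by edgeR).

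FOXM1 (ENSG00000111206, chr12:2857681-2877155, minus strand), the forkhead factor that activates G2/M genes, differed most between the controls. It was at 127 and 130.4 CPM in the knockdown libraries, against 169.7 and 65.2 CPM in control replicates 1 and 2. The knockdown libraries lay close together between the controls. Control replicate 2 minus control replicate 1 was −1.38 in log2 CPM, and the log2 fold change of 0.13 had an SE of 0.454. Against control replicate 1 alone it was −0.40 and against control replicate 2 alone 0.97, in fits that hold no measure of the spread between controls. Of the exon bases of FOXM1, 15.9% are shared with ITFG2 on the opposite strand, and the strand setting of the counting is unknown.

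Among the Aurora kinases and their partners the median log2 fold change was −0.01 over 4 genes. AURKA, the centrosome kinase, was at 281 and 283 CPM in the knockdown libraries, against 319.6 and 314 CPM in control replicates 1 and 2, a small separation that did not pass the test (log2 fold change −0.17, SE 0.156, adjusted p = 0.681 by edgeR). TPX2, which activates Aurora A on spindle microtubules, was at 363 and 353 CPM in the knockdown libraries, against 438 and 309 CPM in control replicates 1 and 2. Here the controls lay on either side of the knockdown libraries. AURKB, the kinase of the chromosomal passenger complex, was at 179 and 202 CPM in the knockdown libraries, against 194 and 171 CPM in control replicates 1 and 2. BIRC5, or survivin, another subunit of that complex, was at 131 and 144 CPM in the knockdown libraries, against 141 and 126 CPM in control replicates 1 and 2. For AURKB and BIRC5 the groups overlapped and the log2 fold changes were 0.062 and 0.043, with SEs of 0.179 and 0.176.

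The 4 spindle checkpoint genes all had negative log2 fold changes, with a median of −0.23. BUB1 (ENSG00000169679, chr2:110637698-110678114, minus strand), a checkpoint kinase of the kinetochore, was at 89.3 and 83.8 CPM in the knockdown libraries, against 119 and 114 CPM in control replicates 1 and 2. Every knockdown value lay below every control value, and the pairs were tight. The means were 86.5 ± 3.92 CPM in knockdown and 117 ± 3.22 CPM in control (SD, n = 2 each), a log2 fold change of −0.43 (SE 0.169, unadjusted p = 0.0508, adjusted p = 0.385 by edgeR). BUB1B, TTK and MAD2L1, which build the inhibitor of the anaphase-promoting complex or signal for it, did not separate in this way. BUB1B was at 95.3 and 87 CPM in the knockdown libraries, against 131 and 84.7 CPM in control replicates 1 and 2. TTK was at 35.8 and 32 CPM in the knockdown libraries, against 47.8 and 31.2 CPM in control replicates 1 and 2. MAD2L1 was at 99 and 82.6 CPM in the knockdown libraries, against 119.7 and 90.9 CPM in control replicates 1 and 2. In each, at least 1 knockdown library lay between the controls, and control replicate 1 was highest. Control replicate 2 minus control replicate 1 was −0.63, −0.61 and −0.40 for them, against −0.056 for BUB1. 

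Of the 3 centromere genes, CENPA (ENSG00000115163, chr2:26764289-26801067, plus strand), the histone variant that marks the centromere, was at 29 and 28.7 CPM in the knockdown libraries, against 38.3 and 41.9 CPM in control replicates 1 and 2. The knockdown libraries were nearly equal and lay below both controls, with means of 28.8 ± 0.165 and 40.1 ± 2.52 CPM in knockdown and control (SD, n = 2 each). The log2 fold change was −0.48 (SE 0.19, adjusted p = 0.388 by edgeR). Of its exon bases 7.0% are shared with SLC35F6 on the same strand. CENPF, a large kinetochore protein, was at 99.2 and 88.8 CPM in the knockdown libraries, against 142 and 97.7 CPM in control replicates 1 and 2. Control replicate 1 alone stood apart. CENPE, a kinetochore motor, followed the same order at 55.5 and 47.9 CPM in the knockdown libraries, against 72.2 and 54.1 CPM in control replicates 1 and 2.

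The 9 spindle motors and microtubule proteins had a median log2 fold change of −0.15, from −0.43 to 0.29. KIF2C (ENSG00000142945, chr1:44739818-44767767, plus strand), a kinesin that depolymerizes microtubules at centromeres, was at 134 and 136 CPM in the knockdown libraries, against 197 and 167 CPM in control replicates 1 and 2. It was at 74.3% of the control level in knockdown, below both controls (log2 fold change −0.43, SE 0.178, adjusted p = 0.402 by edgeR). HMMR (ENSG00000072571, chr5:163460203-163491945, plus strand), a hyaluronan receptor that also binds spindle microtubules, was at 90.1 and 77.2 CPM in the knockdown libraries, against 93.5 and 43.3 CPM in control replicates 1 and 2. Control replicate 2 alone was low, and the log2 fold change of 0.29 had an SE of 0.388. Against control replicate 1 alone it was −0.16.

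KIF11, the motor that separates the spindle poles, was at 88.1 and 80.2 CPM in the knockdown libraries, against 115 and 73.5 CPM in control replicates 1 and 2. KIF23, a motor of the central spindle, was at 143 and 134 CPM in the knockdown libraries, against 151 and 132 CPM in control replicates 1 and 2, and its log2 fold change was −0.027 (SE 0.177). KIF20A, a cytokinesis motor, was at 84.2 and 83.4 CPM in the knockdown libraries, against 81.7 and 65.8 CPM in control replicates 1 and 2, just above both controls. Of these, KIF11 and KIF23 overlapped between the groups.

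ASPM, which acts at spindle poles, was at 64.7 and 56 CPM in the knockdown libraries, against 73.8 and 57.4 CPM in control replicates 1 and 2, and the groups overlapped. DLGAP5, which stabilizes kinetochore fibres, was at 117 and 104 CPM in the knockdown libraries, against 121 and 141 CPM in control replicates 1 and 2, below both controls. NUSAP1 and PRC1 bundle spindle microtubules. NUSAP1 was at 23 and 21.6 CPM in the knockdown libraries, against 23.9 and 25.5 CPM in control replicates 1 and 2, and PRC1 at 7.38 and 7.26 CPM in the knockdown libraries, against 7.49 and 10.2 CPM in control replicates 1 and 2. NUSAP1 lay below both controls by little. PRC1 lay below control replicate 1 by little and below control replicate 2 by more, at −0.034 and −0.48 in log2 CPM. Of the exon bases of NUSAP1 and PRC1, 62.2% and 57.6% are shared on the same strand with read-through genes that are counted separately. Those read-through genes held 220 to 326 counts per library beside NUSAP1 and 54 to 83 beside PRC1, so the levels of both are uncertain.

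CDC20, UBE2C and PTTG1 act with the anaphase-promoting complex, as activator, ubiquitin-conjugating enzyme and securin, and were the most abundant of the 35 per length. On the TPM scale, which divides by gene length, UBE2C averaged 647 in knockdown and 809 in control, CDC20 659 and 765, and PTTG1 439 and 462. UBE2C was at 253 and 260.3 CPM in the knockdown libraries, against 299 and 386 CPM in control replicates 1 and 2, with both knockdown libraries below both controls. This was 74.9% of the control level, a log2 fold change of −0.42 (SE 0.194, adjusted p = 0.443 by edgeR). CDC20 was at 392 and 427 CPM in the knockdown libraries, against 541 and 451 CPM in control replicates 1 and 2, again with no overlap and an adjusted p of 0.554 by edgeR. PTTG1 was at 259 and 275 CPM in the knockdown libraries, against 229 and 378 CPM in control replicates 1 and 2, with the knockdown libraries between the controls. Its level is uncertain, since it has close copies with which reads could be shared. Unlike most of the set, UBE2C and PTTG1 had more transcript in the second control than in the first, by 0.36 and 0.72 in log2 CPM. At the other end of the TPM scale, PRC1 averaged 4.3 in knockdown and 4.86 in control, and ASPM 18 and 18.8.

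Of the cytokinesis genes, ANLN, a scaffold of the contractile ring, was at 159 and 148 CPM in the knockdown libraries, against 190.5 and 131 CPM in control replicates 1 and 2, and ECT2, which activates RhoA there, at 63 and 49.1 CPM in the knockdown libraries, against 81 and 46.2 CPM in control replicates 1 and 2. In both, control replicate 1 was highest and control replicate 2 lowest, and the log2 fold changes of −0.065 and −0.18 had SEs of 0.234 and 0.324.

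TOP2A (ENSG00000131747, chr17:40388516-40417950, minus strand), the topoisomerase that untangles sister chromatids, showed the largest difference of the 35. It was at 133 and 119 CPM in the knockdown libraries, against 288 and 178 CPM in control replicates 1 and 2. Every knockdown value lay below every control value, although the controls were themselves far apart. The means were 126 ± 9.57 CPM in knockdown and 233 ± 77.8 CPM in control (SD, n = 2 each), which is 54% of the control level. Its log2 fold change was −0.89 (SE 0.275), the unadjusted p 0.0224, and the adjusted p 0.311 by edgeR and 0.106 by DESeq2. MKI67, the proliferation marker Ki-67 that coats mitotic chromosomes, was at 186 and 194 CPM in the knockdown libraries, against 205 and 174 CPM in control replicates 1 and 2. Its groups overlapped and had nearly the same mean, 189.8 ± 5.49 CPM in knockdown and 189.6 ± 22.4 CPM in control (SD, n = 2 each), with a log2 fold change of 0.0016 (SE 0.178).

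The spread within the set came mainly from the controls. The median absolute difference in log2 CPM was 0.10 between the knockdown libraries and 0.36 between the controls, beside 0.13 and 0.48 over all genes tested. Control replicate 2 was lower than control replicate 1 for 25 of the 35, where 50% of all genes were. The 6 genes with the largest gap between controls were FOXM1, HMMR, ECT2, PTTG1, TOP2A and KIF11, and of these PTTG1 alone was higher in control replicate 2. CCNB1, CCNB2, AURKA and BUB1 were the steadiest, with gaps of 0.042, 0.010, −0.026 and −0.056. The gap between controls in immediate early transcript accompanied these differences, and its part in them was not tested.

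Other genes of the cell cycle were taken from lists by process, and edgeR called 0 of them, as it called 0 of all genes tested. The 35 other spindle, centrosome and cytokinesis genes had a median of −0.16 (log2 fold change) and a median difference in log2 CPM of −0.33 to the first control and 0.025 to the second. Both knockdown libraries lay below both controls for 10 of them and above for 0, which is 28.6% and 0%, beside 22.9% and 25.4% of all genes tested. CKAP2L, a spindle protein, was at 38.4 and 34.2 CPM in the knockdown libraries, against 74.1 and 61.1 CPM in control replicates 1 and 2. DESeq2 called it lower (adjusted p = 0.0400 by DESeq2 and 0.236 by edgeR). CEP55 and RACGAP1, which act in cytokinesis, had log2 fold changes of −0.42 and −0.44.

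The 19 condensin and cohesin genes had a median of −0.18 (−0.44 and 0.29 against control replicates 1 and 2). RAD21, the cohesin subunit that separase cuts at anaphase, was at 123 and 99.5 CPM in the knockdown libraries, against 239.7 and 232 CPM in control replicates 1 and 2. The controls were nearly equal and the knockdown libraries held 47.1% of their level. DESeq2 called it lower (log2 fold change −1.09 in the edgeR fit, SE 0.189; adjusted p = 0.00242 by DESeq2 and 0.177 by edgeR). PDS5A and NIPBL, a cohesin regulator and the cohesin loader, had log2 fold changes of −0.38 and −0.30. For all 19 the knockdown mean was below control replicate 1, and for 5 it was below control replicate 2, beside 49.6% and 48.3% of all genes tested.

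The 36 other kinetochore genes had a median of 0.015, with 4 above both controls (11.1%) and 6 below (16.7%), beside 25.4% and 22.9% of all genes tested. CENPH, a subunit of the constitutive centromere complex, was at 30.9 and 28.3 CPM in the knockdown libraries, against 44.4 and 53.5 CPM in control replicates 1 and 2. Log2 fold changes were −0.73 for CENPH and 0.40 for NSL1 of the MIS12 complex. The 23 genes of the anaphase-promoting complex and mitotic exit had a median of −0.026. ANAPC15, a subunit of the complex, was at 25.6 and 27.1 CPM in the knockdown libraries, against 45.5 and 46.2 CPM in control replicates 1 and 2 (adjusted p = 0.238 by edgeR and 0.074 by DESeq2), while MASTL, or Greatwall kinase, and ANAPC4, another subunit, each had a log2 fold change of 0.39. DESeq2 called 0 of the 36 and 0 of the 23, beside 1.76% of all genes higher and 2.04% lower.

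Other regulators of G2/M entry, 22 genes, had a median of −0.12. CHEK2, a DNA damage checkpoint kinase, was at 39.8 and 40.6 CPM in the knockdown libraries, against 15 and 24.3 CPM in control replicates 1 and 2 (adjusted p = 0.286 by edgeR and 0.0848 by DESeq2). CDKN1C, a CDK inhibitor, was at 2.26 and 2.96 CPM in the knockdown libraries, against 5.04 and 16 CPM in control replicates 1 and 2. DESeq2 called it lower (adjusted p = 0.0284, against 0.313 by edgeR). SFN, or 14-3-3 sigma, was low, at 0.664 and 0.292 CPM in the knockdown libraries, against 1.2 and 5.31 CPM in control replicates 1 and 2. CDKN1A, the p53-induced inhibitor p21, was at 128 and 131 CPM in the knockdown libraries, against 105 and 176 CPM in control replicates 1 and 2, with the knockdown libraries between the controls. Of the 21 E2F, RB and MuvB factors, which set the transcription of cell cycle genes, 5 lay above both controls and 5 below, 23.8% each and close to the 25.4% and 22.9% of all genes tested. Their median was 0.018. RBL2, or p130, was at 20.1 and 19.3 CPM in the knockdown libraries, against 30.3 and 40.7 CPM in control replicates 1 and 2. E2F5 was at 25.8 and 23.9 CPM in the knockdown libraries, against 14.8 and 17.8 CPM in control replicates 1 and 2. E2F7, a repressor, was at 22 and 19.3 CPM in the knockdown libraries, against 40.4 and 25.6 CPM in control replicates 1 and 2. Lack of overlap between the groups was a condition for naming these 3. By DESeq2 0 of the 21 passed, beside 1.76% of all genes higher and 2.04% lower.

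The 41 DNA replication and G1/S genes were set against each control in the same way. All 41 were lower in control replicate 2 than in control replicate 1, with a median gap of −1.24, against −0.26 for the 35 G2/M and mitosis genes. The median difference of the knockdown mean was −0.29 against control replicate 1, the same as in the mitotic set, and 1.02 against control replicate 2. PCNA, the replication clamp, was at 299.7 and 305 CPM in the knockdown libraries, against 289.8 and 123 CPM in control replicates 1 and 2. ORC1, of the origin recognition complex, was at 74.4 and 78.8 CPM in the knockdown libraries, against 72.9 and 24.3 CPM in control replicates 1 and 2. RPA2, which binds single-stranded DNA, was at 132 and 137 CPM in the knockdown libraries, against 117 and 59.1 CPM in control replicates 1 and 2. In these the knockdown libraries lay just above control replicate 1 and far above control replicate 2. Of the 41 genes, 4 lay above both controls (9.76%) and 0 below, beside 25.4% and 22.9% of all genes tested. The knockdown mean was below control replicate 1 for 34 of the 41, beside 49.6% of all genes tested. The 20 immediate early genes had median differences of −0.084 to the first control and −1.53 to the second. DESeq2 called 5 of the 20 lower and 0 of the 41, beside 2.04% of all genes tested. The difference between these lists was not tested.

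**Figure D4:**
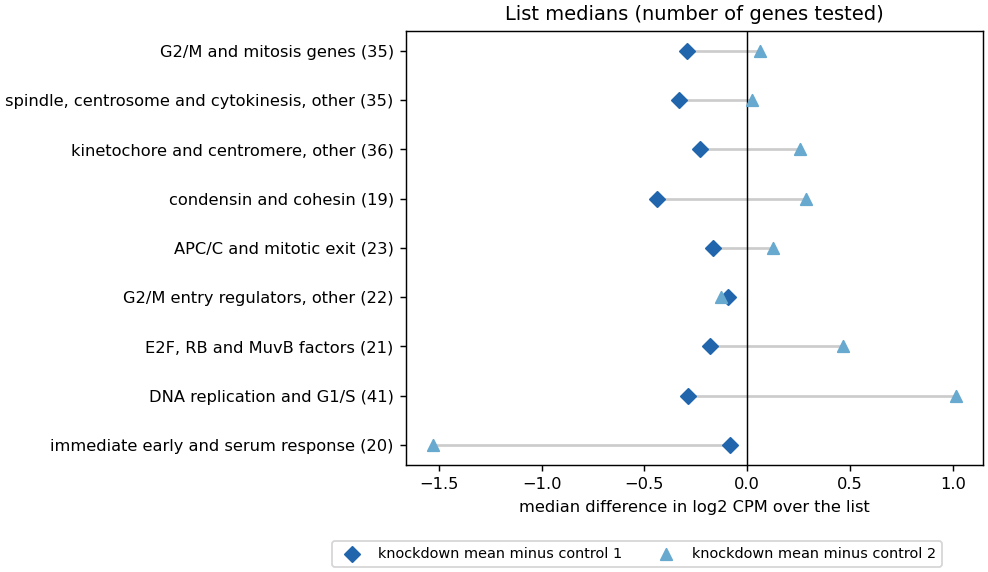
Median difference in log2 CPM between the knockdown mean and control replicate 1 (dark blue diamonds) or control replicate 2 (light blue triangles) over each list, with the number of genes tested in brackets. The G2/M and mitosis genes span −0.29 to 0.060, DNA replication genes −0.29 to 1.02 and immediate early genes −0.084 to −1.53.

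The authors' deposited table also gives log2 fold changes, as control over knockdown, which do not follow from the deposited counts alone. Across the 10087 genes with a mean normalized count above 200 in that table, Pearson's r between its log2 fold changes and those from the counts was 0.40, a description over genes that are not independent. The authors' deposited table had 0 of the 35 at an adjusted p under 0.05, and the lowest was 0.0952, for ANLN. The share of all genes under 0.05 in that table was not computed here. There ANLN had a log2 value of −1.07 and TOP2A 0.13, control over knockdown, while the counts gave the same genes −0.065 and −0.89, knockdown over control. Turned to the same direction, the signs matched for 21 of the 35. Which libraries entered that table is not given in the sources used here.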

How the data were processed

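Total RNA of SJSA-1 cells was sequenced in 2 ZNF217 knockdown and 2 control samples. The authors deposited raw counts, whole numbers per gene. The tools named in the submitters' processing notes are HISAT2, Subread, Trimmomatic and DESeq2, and the build is GRCh38. The authors' TPM columns, a signal per library, sum to 10 times the usual total and were divided by 10. The authors' mean normalized count (a signal), log2 fold changes, Wald score and p-values (raw and adjusted) come from DESeq2, per the file headers, and entered no test.

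The main test was edgeR 4.0.16 under R 4.3.3 (quasi-likelihood test, TMM scaling, default low-count filter, no covariate, two-sided, Benjamini-Hochberg over all 12965 genes, threshold 0.05) with DESeq2 1.42.0 and limma 3.58.1 as alternatives. Log2 CPM had a prior count of 2. The tests were checked on simulated counts. Counts are 21466327 to 24487126 per library, and a count of 0 allows up to 3 counts, or 0.117 to 0.139 CPM. These limits and the intervals cover counting error only.

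Positions came from GENCODE release 29 (GRCh38) and promoters from RefSeq. The genes, lists and tests were chosen with earlier results of these data known. The rule for named genes took 11 genes by name, the 8 largest and 6 smallest log2 fold changes, the 6 largest gaps between controls, and up to 3 non-overlapping genes of smallest p in each other list. The rest of the 35 are also given per library. SPP1, LCP1, ITGAM, MDM2, CDK4 and COL1A1 were named after their values were seen. A gene that the rule named is not reported here.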

Additional observations from a re-analysis of the deposited data

How the results depend on the processing

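Every one of these genes had at least 162 counts in each library. With 2 simulated libraries a group, edgeR called 10% of 2-fold changes at the common spread of the data and 92% at a low spread. The log2 ratio of summed levels, knockdown mean over control, was −0.29 for control replicate 1 and −0.068 for control replicate 2, and with library totals, chosen after seeing the data, −0.24 and 0.12. Over all genes, the count called higher and lower was 16 and 3 without a low-count filter, 230 and 267 by DESeq2, 160 and 124 in a replicate block fit, and 12 to 3710 and 3 to 3729 with 1 library left out (3710 and 3729 without control replicate 1, 2374 and 2183 without control replicate 2), against 0 and 0. Of the 35 genes, 0 to 3 were called higher and 0 to 18 lower with 1 library left out (3 and 9 without control replicate 1, 0 and 18 without control replicate 2), and 0 under each other alternative (other scaling, other filters, DESeq2, limma, the block, thresholds of 0.01 and 0.1). Deviations of same-numbered libraries from their group means correlated at −0.032. With 2 libraries a group and controls this far apart, that value cannot show whether the numbers pair the samples. The block left the median of the 35 at −0.14. That median ran from −0.30 to 0.05 with 1 library left out, the highest without control replicate 1. With library totals the median of all genes shifted to 0.11 and that of the 35 to −0.053. Against control replicate 2 the median of the 35 was 0.25 with library totals and 0.27 with log2 of TPM plus 1, against 0.060. With library totals 6, not 13, of the 35 lay below both controls, and the matching share of all genes was not computed. The promoter shares moved within their intervals with a window of 150 bases before to 50 after.

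Of the 23 genes named by rule, the log2 fold change reversed with library totals to 0.040 for TPX2, 0.083 for KIF23 and 0.038 for ANLN. For MKI67 it reversed to −0.017 with RLE factors, −0.0077 without a filter, −0.0060 with a stricter one and −0.015 by DESeq2. With 1 library left out the log2 fold change also reversed for some genes, over ranges of −0.41 to 0.19 for CCNA2, −0.26 to 0.051 for CDK1, −0.40 to 0.13 for PLK1, −0.40 to 0.97 for FOXM1, −0.30 to 0.20 for TPX2, −0.030 to 0.15 for AURKB, −0.040 to 0.12 for BIRC5, −0.46 to 0.18 for KIF11, −0.12 to 0.063 for KIF23, −0.16 to 0.94 for HMMR, −0.51 to 0.22 for PTTG1, −0.31 to 0.22 for ANLN, −0.53 to 0.27 for ECT2 and −0.12 to 0.12 for MKI67. The cause was not tested.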
